A study of Mus musculus with 22 samples.

Results

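Transcripts of 39 genes of the cell cycle and of DNA replication were measured in mouse left ventricle, out of 30735 genes in the deposited tables. The 39 genes were taken by name from a list of mitotic, replication and G1 genes. Across the 22 libraries 26 of the 39 averaged at least 1 TPM (transcripts per 1000000 transcripts), 13 reached 1 TPM in every library, and 3 reached it in none. The number averaging at least 1 TPM was 38 after each library was rescaled to its nuclear protein-coding genes. The 3 were Plk1, Kif11 and Cenpe, a mitotic kinase and a pair of motor proteins of the spindle. No member was listed at 0 in any library. In limma's moderated test across all genes, 0 members passed an adjusted p of 0.05 in any of the 6 comparisons. Of all genes tested, 0% to 0.772% passed, so that 0 members is near the share over all genes. On the log2(TPM + 1) scale the largest differences were those of Tyms, the enzyme that makes thymidylate for DNA synthesis, Bub1, a kinase of the spindle checkpoint, and Cenpf, a protein of the kinetochore. At 2 weeks the group mean of each was highest in VCP TG hearts after aortic constriction, and the highest library of each was replicate 1 of that group.

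The series' title names the effect of valosin-containing protein (VCP), an ATPase that pulls ubiquitin-marked proteins out of complexes and membranes, in hypertrophy and dysfunction of the heart. All mice were of the FVB strain and 3-5 months old, and were VCP TG (carrying a VCP transgene) or wild type (WT). Transverse constriction of the aorta (TAC), an operation that narrows the vessel and so loads the left ventricle with pressure, was compared at 2 weeks with a sham operation. Poly(A) RNA libraries came from 3 VCP TG and 4 WT ventricles 2 weeks after TAC, from 4 VCP TG and 4 WT ventricles after sham surgery, and from 3 VCP TG and 4 WT ventricles 5 weeks after TAC. The promoter and the cell type that drive the transgene are named in none of the sources used here. No sham group is labelled for 5 weeks, and the 5-week libraries stand in a table of their own, so that time and table cannot be told apart. The labels tie no library to a named animal, and p-values therefore measure the spread between libraries.

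Cells that divide copy their DNA in S phase and part it in mitosis. Cyclin D with Cdk4 opens the cycle in G1, E2F factors then switch on the genes of replication, and the mitotic genes are read later, under the MuvB complex with B-MYB and FOXM1, which acts on a promoter sequence called the CHR element. In the adult mouse heart cardiomyocytes rarely divide, while fibroblasts, endothelial cells and macrophages can proliferate after pressure overload, and a cardiomyocyte may also copy DNA without dividing. In RNA of whole tissue, fewer cells of a type and less RNA per cell cannot be told apart.

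RefSeq promoter windows of 300 bases (250 before and 50 after the start, GRCm38.p6) were found for 32 of the 39 members and for 27025 genes in all. They were searched on both strands for the CHR element (TTTGAA or TTCGAA), for the CCAAT box (CCAAT) bound by NF-Y, and for E2F-type sites (GCGGGAA or TTGGCGC). The CHR letters stood in 15 of 19 windows of mitotic members (78.9%), in 2 of 10 of replication and deoxynucleotide members (20%) and in 0 of 3 of G1 members, against 19.4% of all windows. The CCAAT box stood in 17 of 19 mitotic windows (89.5%) and in 8 of 10 replication windows (80%), against 37.9% of all windows. E2F-type letters stood in 3 of 19 mitotic windows (15.8%) and in 5 of 10 replication windows (50%), against 6.93% of all windows. A match is a description of the letters and not of a bound factor, and no match says only that these letters are not in this window. Windows are shown for 6 members, to let the shared letters and their absence from the Tyms window be seen. They are those of the mitotic cyclin Ccnb2 (chr9:70421505-70421804, minus strand), of Cdc20, an activator of the anaphase-promoting complex (chr4:118437294-118437593, minus strand), of Bub1 (chr2:127831810-127832109, minus strand), of the replicative helicase subunits Mcm5 (chr8:75109259-75109558, plus strand) and Mcm6 (chr1:128359656-128359955, minus strand), and of Tyms (chr5:30073576-30073875, minus strand). Bub1 and Tyms were added after their values were seen, in place of Ccnb1 and Ube2c, which had been planned. The Ccnb1 window, not shown, held 0 CHR elements, 2 CCAAT boxes and 1 E2F-type site. That of Ube2c held 1 CHR element, 6 CCAAT boxes and 0 E2F-type sites. Capitals mark matches to the motifs, as read 5′ to 3′ along the gene's own strand.
Ccnb2: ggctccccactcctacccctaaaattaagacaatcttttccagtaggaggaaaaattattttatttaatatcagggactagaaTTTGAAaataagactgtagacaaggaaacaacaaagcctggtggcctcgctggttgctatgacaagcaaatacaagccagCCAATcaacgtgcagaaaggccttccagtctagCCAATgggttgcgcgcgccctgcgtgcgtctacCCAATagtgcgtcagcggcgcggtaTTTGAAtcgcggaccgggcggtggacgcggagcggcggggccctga
Cdc20: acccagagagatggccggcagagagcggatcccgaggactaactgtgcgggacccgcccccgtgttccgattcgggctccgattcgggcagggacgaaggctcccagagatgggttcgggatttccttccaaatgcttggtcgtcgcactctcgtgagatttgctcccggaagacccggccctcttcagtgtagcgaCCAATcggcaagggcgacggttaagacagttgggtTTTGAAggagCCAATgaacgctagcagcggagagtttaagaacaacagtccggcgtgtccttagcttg
Bub1: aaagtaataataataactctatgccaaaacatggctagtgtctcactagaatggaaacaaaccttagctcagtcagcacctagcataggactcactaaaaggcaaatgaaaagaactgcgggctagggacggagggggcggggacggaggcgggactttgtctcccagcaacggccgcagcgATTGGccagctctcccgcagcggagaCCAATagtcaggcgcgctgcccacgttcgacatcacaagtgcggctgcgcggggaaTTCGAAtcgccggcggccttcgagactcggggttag
Mcm5: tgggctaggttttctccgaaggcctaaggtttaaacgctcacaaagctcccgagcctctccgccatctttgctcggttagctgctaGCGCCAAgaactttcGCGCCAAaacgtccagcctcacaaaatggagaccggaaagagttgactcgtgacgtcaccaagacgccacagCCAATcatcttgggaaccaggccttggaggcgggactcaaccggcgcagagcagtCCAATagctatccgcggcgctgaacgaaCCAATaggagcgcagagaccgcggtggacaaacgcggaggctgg
Mcm6: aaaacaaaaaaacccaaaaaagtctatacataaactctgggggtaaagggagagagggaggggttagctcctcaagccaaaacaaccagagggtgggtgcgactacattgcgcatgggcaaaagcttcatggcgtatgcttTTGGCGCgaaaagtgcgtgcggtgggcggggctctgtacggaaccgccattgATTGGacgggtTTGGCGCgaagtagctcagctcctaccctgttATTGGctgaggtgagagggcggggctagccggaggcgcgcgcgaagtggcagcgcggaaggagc
Tyms: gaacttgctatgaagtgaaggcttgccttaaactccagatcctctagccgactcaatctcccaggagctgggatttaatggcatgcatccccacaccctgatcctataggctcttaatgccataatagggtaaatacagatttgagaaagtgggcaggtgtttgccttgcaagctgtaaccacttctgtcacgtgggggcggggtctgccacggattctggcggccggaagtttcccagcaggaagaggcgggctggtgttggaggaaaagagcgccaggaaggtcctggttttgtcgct
Ccnb2 held 2 CHR elements and 3 CCAAT boxes, and Cdc20 and Bub1 held 1 CHR element and 2 CCAAT boxes each. Mcm5 held 2 E2F-type sites and 3 CCAAT boxes, and Mcm6 held 2 of each, both without CHR letters. The Tyms window held none of the motifs.

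**Figure D1:**
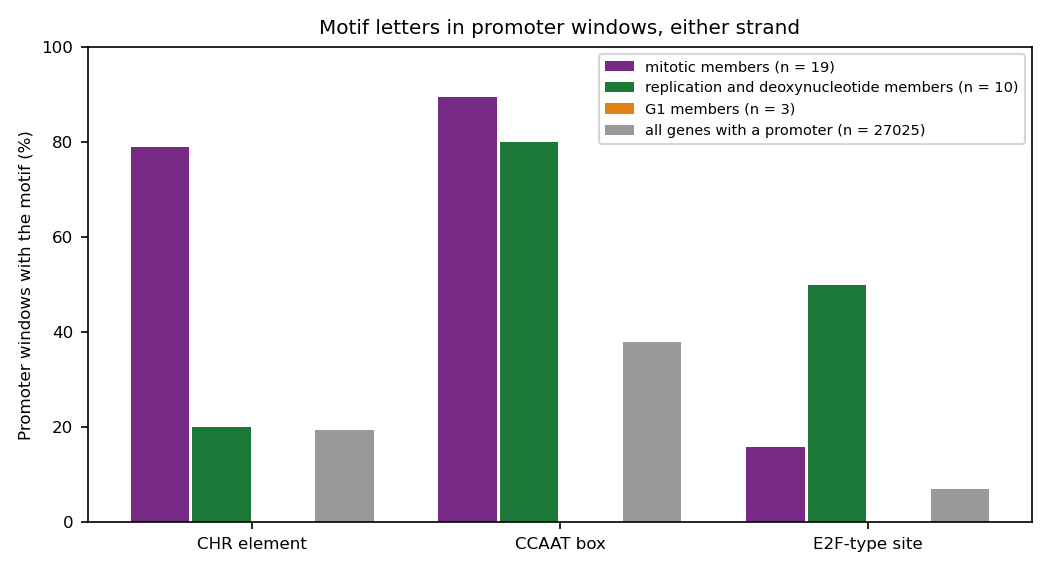
Share of 300-base promoter windows that hold the CHR element, the CCAAT box or an E2F-type site on either strand, in percent. Bars stand for 19 mitotic members, 10 replication and deoxynucleotide members, 3 G1 members and 27025 windows of all genes; the CHR bar is highest for mitotic members at 78.9%, and the E2F-type bar for replication members at 50%.

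In a library 16 to 32 of the 39 members reached 1 TPM, beside 11629 to 16813 of all 30735 genes. Most members averaged no more than 10 TPM on the deposited scale. Over the 22 libraries 7 of them averaged above 10 TPM and made up 64.4% of the summed TPM of all 39, and the 13 members under 1 TPM made up 5.84%. The 7 were Tyms (20.3 TPM), the replication clamp Pcna (15.2 TPM), the G1 kinase Cdk4 (13.3 TPM), thymidine kinase Tk1 (12.3 TPM), the cyclins Ccnd1 (11.8 TPM) and Ccnd2 (11.2 TPM), and Cenpa, the histone H3 variant of the centromere (11.3 TPM). Mki67, the gene of the Ki-67 protein by which dividing cells are commonly stained, averaged 2.05 TPM. Rrm1, the large subunit of ribonucleotide reductase, varied least between libraries, with a coefficient of variation of 20.9%. Bub1b, a checkpoint kinase, varied most, at 79.7%.

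At least 1 TPM was reached by 27 to 32 of the 39 members in a VCP TG TAC library and by 20 to 26 in a WT TAC library at 2 weeks. After sham surgery 16 to 30 members reached it in a VCP TG library and 19 to 24 in a WT library. At 5 weeks the counts were 21 to 29 in VCP TG TAC and 25 to 32 in WT TAC libraries. On the deposited TPM scale the 3 VCP TG TAC libraries of 2 weeks thus lay above all WT TAC libraries of that time, and after rescaling to nuclear protein-coding genes they did not, with 36 to 39 members in VCP TG TAC and 34 to 39 in WT TAC libraries. The rescaled counts were 31 to 36 in VCP TG sham and 29 to 36 in WT sham, and 35 to 37 in VCP TG TAC and 37 to 39 in WT TAC at 5 weeks. Of all genes, 13891 to 16813 reached 1 TPM in VCP TG TAC libraries and 12868 to 13414 in WT TAC libraries at 2 weeks, so that the count over all genes ran the same way.

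The summed TPM of the 39 members had a median of 166.4 in VCP TG TAC and of 135.5 in WT TAC at 2 weeks, of 145.1 in VCP TG sham and of 143.2 in WT sham, and of 132.9 in VCP TG TAC and of 147.6 in WT TAC at 5 weeks. Single libraries set much of the spread. VCP TG sham replicate 3 held the highest value of its group for 29 of the 39 members, and replicate 4 the lowest for 29. VCP TG TAC replicate 1 of 2 weeks held the highest for 28, and WT TAC replicate 3 of 2 weeks for 26.

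The same libraries stood apart in other measures. The 13 protein-coding genes of the mitochondrial genome took the smallest share of all libraries in VCP TG sham replicate 3, at 27.9% of TPM, and the largest in replicate 4, at 72.9%. The atrial light chain Myl7, which a ventricle should hardly contain, reached 2269 TPM in VCP TG sham replicate 3 and exceeded 300 TPM also in VCP TG sham replicate 4, VCP TG TAC replicate 2 and WT TAC replicate 1 of 2 weeks. Red cell markers summed to 2182 TPM in VCP TG sham replicate 3 and to 106 to 282 TPM in the others of its group, and lymphocyte markers to 44.9 TPM and to 11.6 to 18.5 TPM. Vcp itself, counted after rescaling each library to its nuclear protein-coding genes, lay between 258.6 and 355.1 TPM in VCP TG TAC and between 144.4 and 344.5 TPM in WT TAC of 2 weeks, between 214.7 and 512.0 TPM in VCP TG sham and between 161.5 and 204.1 TPM in WT sham, and between 113.7 and 340.9 TPM in VCP TG TAC and between 169.6 and 353.6 TPM in WT TAC of 5 weeks. A cut over all 22 libraries was set between 214.7 and 258.6 TPM, the widest gap that left at least 5 on a side. By this cut 5 libraries lay with the other genotype. VCP TG sham replicate 1 and VCP TG TAC replicate 3 of 5 weeks lay below it. WT TAC replicate 1 of 2 weeks and WT TAC replicates 2 and 3 of 5 weeks lay above it. VCP TG sham replicate 1, at 214.7 TPM, nonetheless lay above every WT sham library. Groups are named by their labels throughout. Without these 5 libraries, an alternative chosen after seeing the data, 0 members passed the adjusted test, and the log2 fold change of Tyms was 1.15 for VCP TG TAC against VCP TG sham and 1.14 for VCP TG TAC against WT TAC of 2 weeks. The 1659 olfactory and vomeronasal receptor genes, which the ventricle should hardly transcribe, averaged 0.336 to 0.895 TPM in VCP TG TAC and 0.124 to 0.220 TPM in WT TAC libraries of 2 weeks, with the highest value in VCP TG TAC replicate 1. Cardiomyocyte markers were abundant in every library, at a summed 12774 to 27278 TPM over 7 genes. These values are set beside the results below, and their part in the results was not tested except where a value without those libraries is given.

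**Figure D2:**
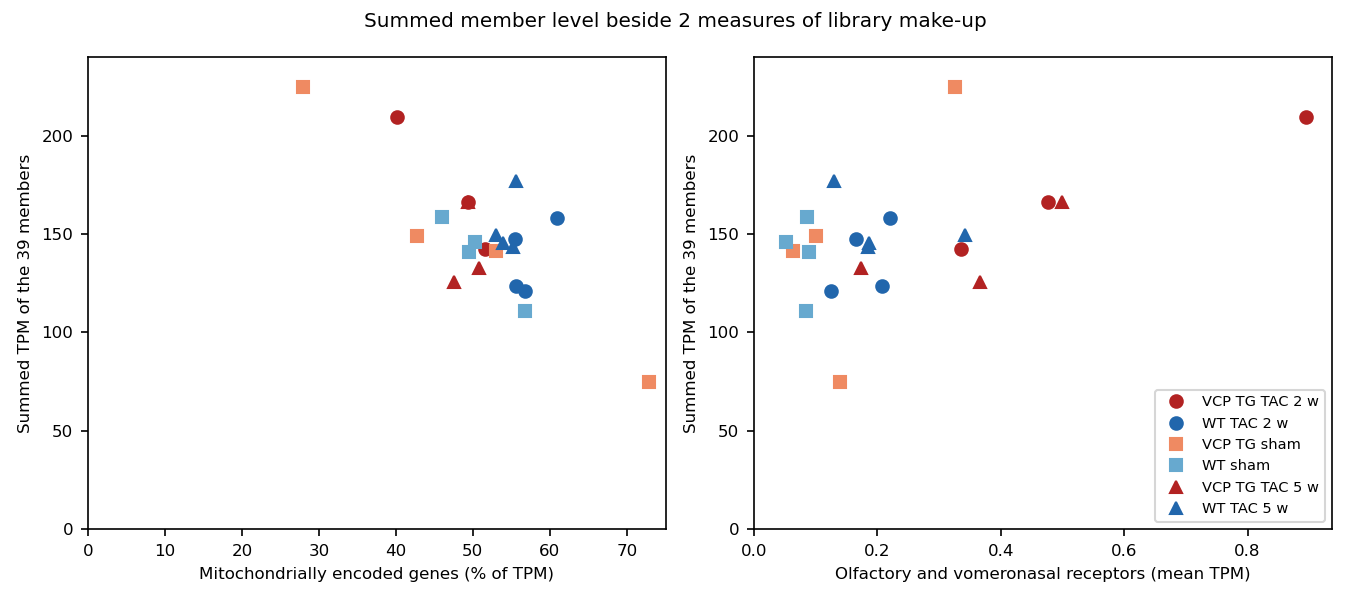
Summed TPM of the 39 members in each of the 22 libraries, against the percentage of TPM in mitochondrially encoded genes (left) and against the mean TPM of 1659 olfactory and vomeronasal receptor genes (right). Colours and shapes mark the 6 groups; the highest sum, 224.6, belongs to the library with the lowest mitochondrial share, and the lowest sum, 74.9, to that with the highest.

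**Figure D3:**
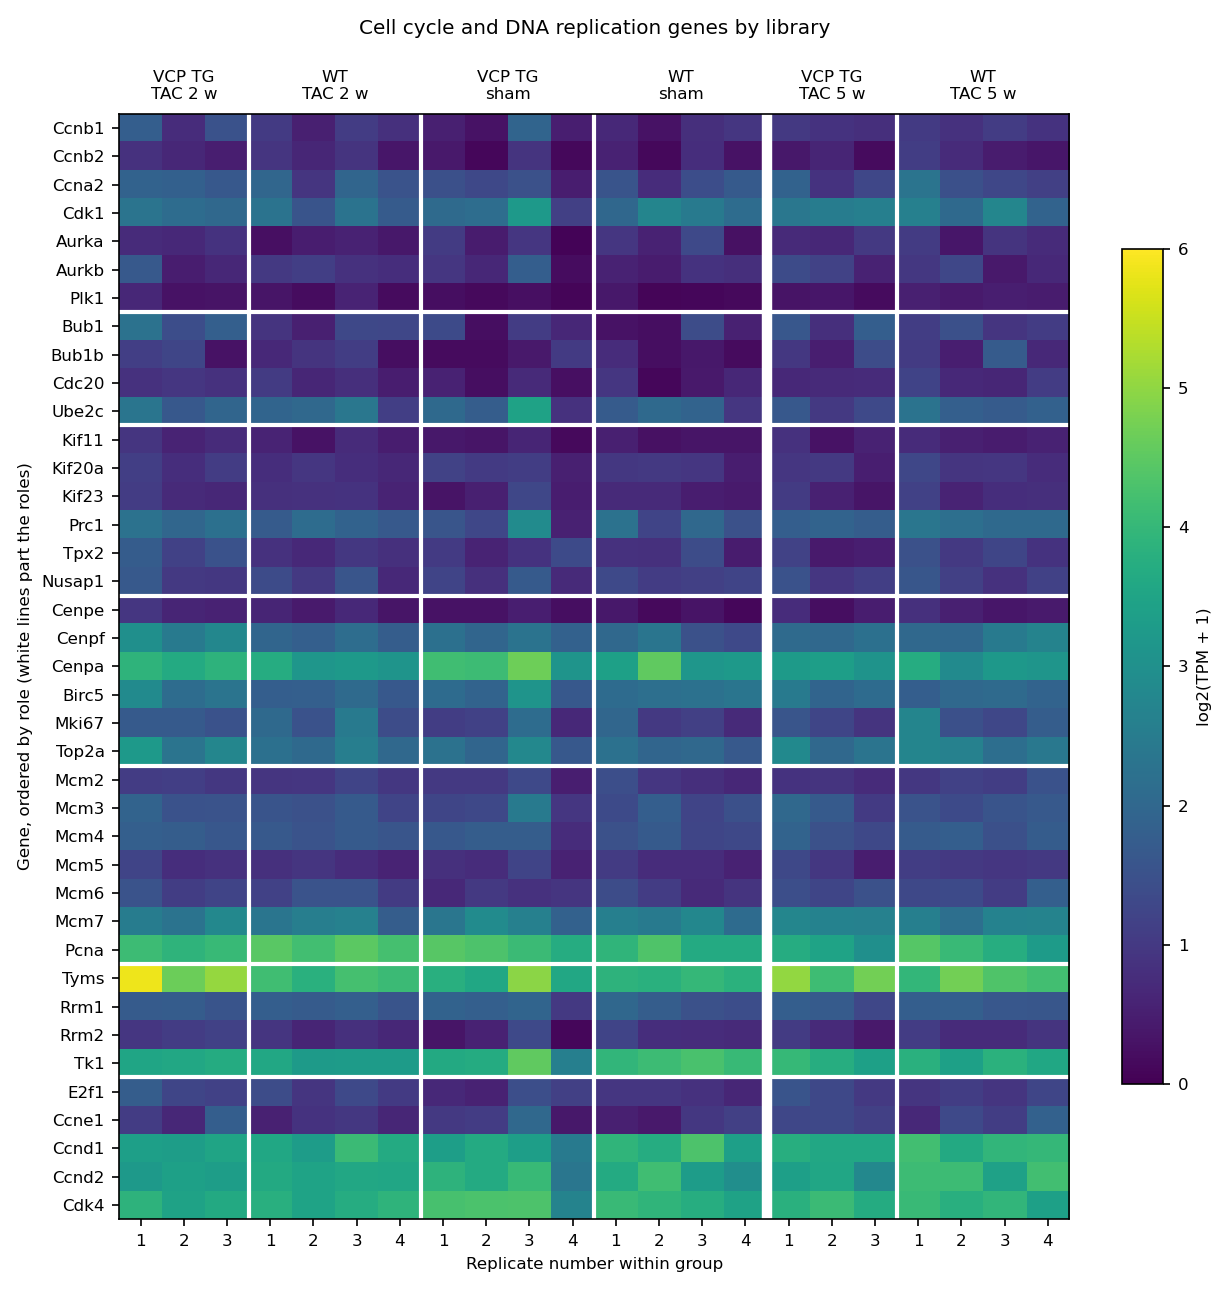
Level of each member as log2(TPM + 1), with genes in rows by role and libraries in columns by group and replicate; white lines part roles and groups, and the widest parts the 2-week from the 5-week table. Tyms is the brightest row on average, and the columns of VCP TG sham replicates 3 and 4 differ from the rest of their group over most rows.

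The first question was what TAC did to the members in VCP TG hearts. Tyms, Bub1 and Cenpf had higher means 2 weeks after TAC than after sham surgery in VCP TG hearts, by 2.34, 3.13 and 1.77 times, and none of the 3 passed the adjusted test. Tyms (ENSMUSG00000025747, chr5:30058202-30073617, minus strand, GRCm38) had 56.7, 24.2 and 32.2 TPM in VCP TG TAC replicates 1 to 3, against 12.8, 10.9, 29.9 and 11.1 TPM in VCP TG sham replicates 1 to 4. Every TAC library lay above 3 of the 4 sham libraries, and sham replicate 3 overlapped the TAC range. The means were 37.7 ± 16.9 TPM (SD, n = 3) in VCP TG TAC and 16.1 ± 9.18 TPM (SD, n = 4) in VCP TG sham, and the log2 fold change on the TPM + 1 scale, which understates changes of low genes, was 1.21 ± 0.32 (SE, limma adjusted p = 0.0820).

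The Tyms result turned on single libraries. Without VCP TG sham replicate 3 it passed the limma test with a log2 fold change of 1.54 (adjusted p = 0.00243). Without VCP TG TAC replicate 2 it was 1.48 (adjusted p = 0.0479), and without the 4 libraries with Myl7 above 300 TPM it was 1.77 (adjusted p = 0.00201). Without VCP TG TAC replicate 1, the library with the highest receptor gene level, it was 0.88 (adjusted p = 1). Many genes passed in some of these fits. They were 747 higher and 6 lower without VCP TG sham replicate 3, and 701 higher and 18 lower without the Myl7 libraries. Over 20 alternatives the adjusted p of Tyms ran from 0.00201 to 1, and its log2 fold change from 0.88 to 1.77.

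Bub1 (ENSMUSG00000027379, chr2:127801122-127831865, minus strand) had 3.81, 1.66 and 2.52 TPM in VCP TG TAC hearts, against 1.54, 0.175, 1.10 and 0.599 TPM in VCP TG sham hearts. Cenpf (ENSMUSG00000026605, chr1:189640606-189688086, minus strand) had 6.91, 4.53 and 5.86 TPM in VCP TG TAC hearts, against 3.65, 2.85, 3.91 and 2.64 TPM in VCP TG sham hearts. In both genes the lowest TAC library lay above the highest sham library. The log2 fold changes were 1.00 ± 0.33 for Bub1 (SE, limma adjusted p = 0.202) and 0.66 ± 0.27 for Cenpf (SE, limma adjusted p = 0.370).

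Members without overlap between VCP TG TAC and VCP TG sham libraries numbered 4 in the higher direction, against 3.35% of all 15540 genes tested, and 0 in the lower, against 0.676%. Beside Bub1 and Cenpf these were Mcm6 and Ccna2, the cyclin of S phase and early mitosis, and they were named after their values were seen. Ccna2 had 2.69, 2.59 and 2.13 TPM in VCP TG TAC, against 1.78, 1.48, 1.80 and 0.395 TPM in VCP TG sham. Mcm6 had 1.89, 1.14 and 1.36 TPM in VCP TG TAC, against 0.615, 1.01, 0.817 and 0.904 TPM in VCP TG sham. For both genes the ranges lay close to each other, 2.13 against 1.80 TPM and 1.14 against 1.01 TPM at their nearest.

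Of the 39 members 32 were tested in the 2-week table, where a gene needed 1 TPM in at least 3 of the 15 libraries. Adjusted calls in the VCP TG TAC comparison numbered 120 genes, or 0.772% of those tested, of which 119 were higher, and 0 of them were members. Unadjusted p under 0.05 in the higher direction was reached by 4 members, namely Tyms, Bub1, Cenpf and the mitotic topoisomerase Top2a, against 8.0% of all genes, and by 0 in the lower; in either direction it was 8.77% of all genes. Log2 fold changes were above 0 in 27 of the 32, against 52.4% of all genes. After rescaling to nuclear protein-coding genes they were above 0 in 20 of 38, against 38.1% of all genes, and after quantile normalization in 17 of 32, against 41.7%. Rescaling raised levels, so that more members met the filter. Rescaled counts and medians, here and below, thus cover members that the main test left out. The median was 0.17 for the members and 0.02 for all genes, and after rescaling 0.11 for the members and -0.16 for all genes. It was -0.01 for the members without VCP TG sham replicate 4 and 0.42 without VCP TG sham replicate 3.

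By role, 4 of 4 mitotic kinases and cyclins tested were above 0 in the VCP TG TAC comparison, with a median log2 fold change of 0.29. Of the kinesins and spindle proteins 4 of 4 were above 0, with a median of 0.31, and of the centromere and chromosome genes 4 of 5, with a median of 0.37. Checkpoint and anaphase-promoting complex genes had 2 of 3 above 0 and a median of 0.44, and deoxynucleotide genes 4 of 4 and 0.24. Replication genes had 6 of 7 above 0 and a median of 0.10, which was -0.03 after rescaling and -0.01 after quantile normalization, and G1 genes had 3 of 5 and 0.06, which was -0.09 and -0.18. The other roles kept a median above 0 under both scalings, with 2 to 4 members of each above 0. After quantile normalization 2 of 4 were above 0 in mitotic kinases and cyclins, in kinesins and spindle proteins and in deoxynucleotide genes. Top2a had 8.56, 3.99 and 5.76 TPM in VCP TG TAC, against 3.76, 2.90, 6.01 and 2.13 TPM in VCP TG sham, so that 1 sham library lay inside the TAC range. Mki67 had 2.27, 2.23 and 1.86 TPM in VCP TG TAC, against 1.12, 1.25, 3.38 and 0.624 TPM in VCP TG sham. Here sham replicate 3 lay above all TAC libraries and the other sham libraries lay below them. Macrophage markers summed to 122 to 154 TPM in VCP TG TAC and to 65.1 to 179 TPM in VCP TG sham, with 9 of 9 tested above 0 and 0 past the adjusted test, and the mitochondrial share was 40.2% to 51.6% in VCP TG TAC and 27.9% to 72.9% in VCP TG sham. Their part in the result was not tested.

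**Figure D4:**
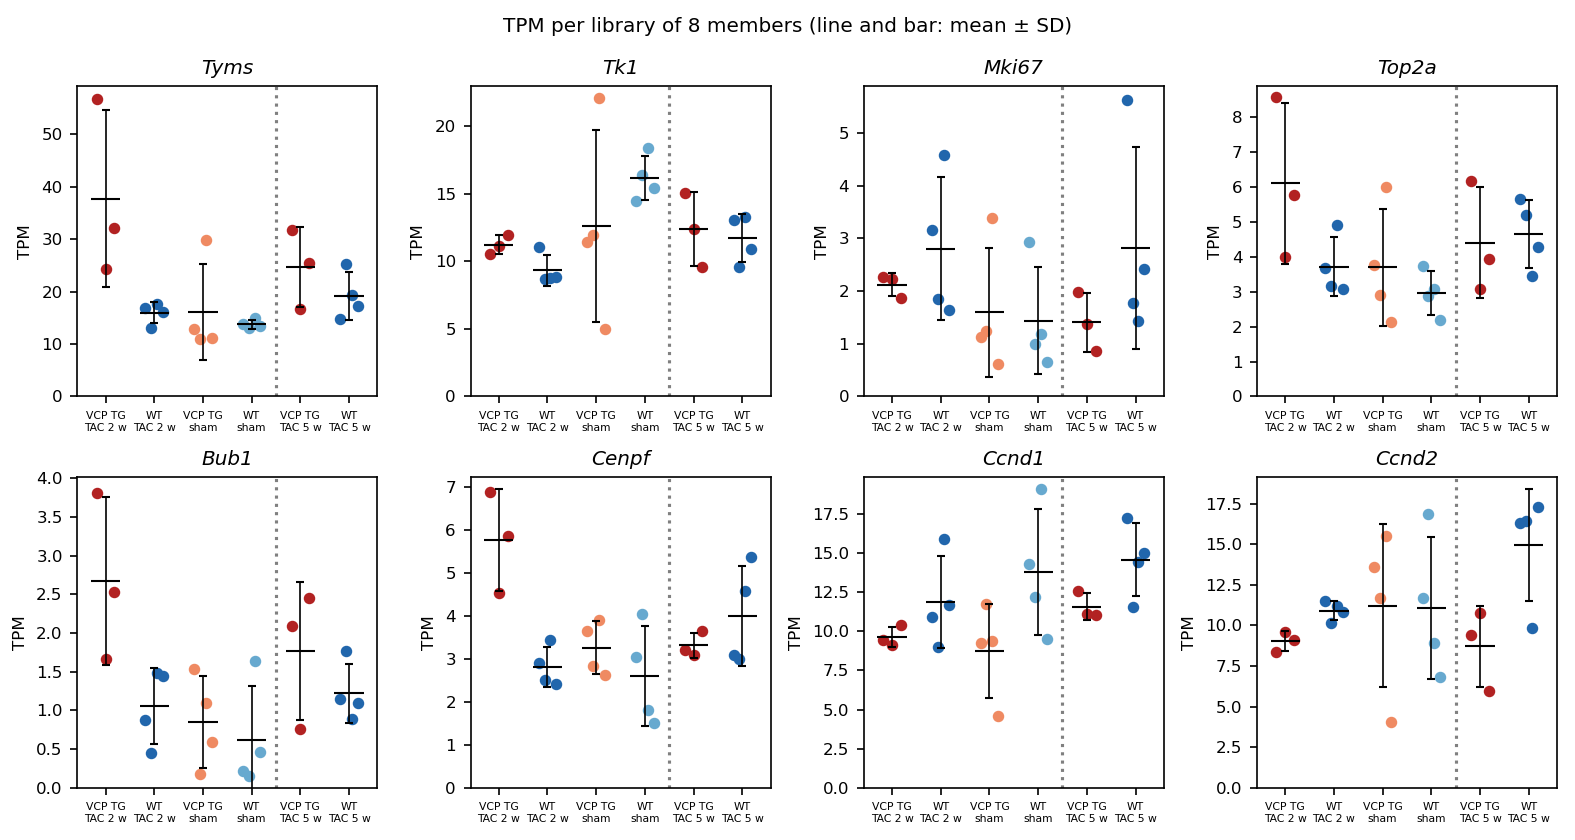
TPM per library of 8 members in the 6 groups, with VCP TG left of WT; points are libraries, the line is the mean and the bar 1 SD either way, ended at 0, and the dotted line parts the 2-week from the 5-week table. In Tyms, Bub1 and Cenpf the 3 VCP TG TAC libraries of 2 weeks lie above all 4 WT TAC libraries, and in Tk1 the 4 WT TAC libraries lie below the 4 WT sham libraries.

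The same TAC libraries were then set against WT hearts under TAC, a comparison that shares the VCP TG TAC group with the one above. Tyms had 56.7, 24.2 and 32.2 TPM in VCP TG TAC hearts, against 16.8, 13.0, 17.7 and 16.1 TPM in WT TAC hearts, and the groups did not overlap. The mitochondrial share did not overlap either, at 40.2% to 51.6% in VCP TG TAC and 55.5% to 60.9% in WT TAC, nor did the receptor gene level. Lymphocyte markers summed to 14.2 to 22.6 TPM in VCP TG TAC and to 10.6 to 14.6 TPM in WT TAC, and of the 3 of 9 tested 1 was higher at an unadjusted p under 0.05 and 0 passed the adjusted test. Their part in the result was not tested. The Tyms means were 37.7 ± 16.9 TPM (SD, n = 3) in VCP TG TAC and 15.9 ± 2.03 TPM (SD, n = 4) in WT TAC, and the log2 fold change was 1.11 ± 0.32 (SE, limma adjusted p = 0.160). Without the libraries with Myl7 above 300 TPM it was 1.41 (adjusted p = 0.0136), without VCP TG TAC replicate 1 it was 0.78 (adjusted p = 1), and over 20 alternatives the adjusted p ran from 0.0136 to 1. In all, the fit without the Myl7 libraries called 629 genes higher and 11 lower.

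Cenpf had 6.91, 4.53 and 5.86 TPM in VCP TG TAC, against 2.91, 2.52, 3.44 and 2.42 TPM in WT TAC. Bub1 had 3.81, 1.66 and 2.52 TPM in VCP TG TAC, against 0.873, 0.450, 1.48 and 1.44 TPM in WT TAC. Neither gene's groups overlapped, and the log2 fold changes were 0.82 ± 0.27 for Cenpf (SE, limma adjusted p = 0.206) and 0.82 ± 0.33 for Bub1 (SE, limma adjusted p = 0.370). Tpx2, which loads the kinase Aurora A onto the spindle, had 2.34, 1.25 and 1.87 TPM in VCP TG TAC, against 0.795, 0.602, 0.959 and 0.780 TPM in WT TAC, again without overlap. Its log2 fold change was 0.64 ± 0.26 (SE, limma adjusted p = 0.382).

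Pcna and Ccnd2 ran the other way, without overlap and without passing the test. Pcna had 16.3, 13.9 and 15.4 TPM in VCP TG TAC, against 20.97, 17.1, 21.6 and 17.8 TPM in WT TAC. Ccnd2 had 8.40, 9.60 and 9.11 TPM in VCP TG TAC, against 11.5, 10.1, 11.2 and 10.8 TPM in WT TAC. In both genes the highest VCP TG library lay under the lowest WT library. The log2 fold changes were -0.32 ± 0.25 for Pcna and -0.25 ± 0.34 for Ccnd2 (SE, limma adjusted p = 0.895 and 1.00).

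Rrm2, the small subunit of ribonucleotide reductase, and Birc5, which encodes survivin of the chromosomal passenger complex, were also higher without overlap. Rrm2 had 0.918, 1.08 and 1.24 TPM in VCP TG TAC, against 0.902, 0.535, 0.786 and 0.585 TPM in WT TAC. Birc5 had 6.26, 3.34 and 3.92 TPM in VCP TG TAC, against 2.46, 2.52, 3.18 and 2.13 TPM in WT TAC, and its lowest VCP TG library stood just above the highest WT library, as did that of Rrm2.

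Across this comparison 6 members were without overlap in the higher direction, against 19% of all genes, and 2 in the lower, against 2.78%. Adjusted calls numbered 14 genes, or 0.0901%, and 0 members. At an unadjusted p under 0.05 the higher members were 4, against 9.24% of all genes (9.58% in either direction). Log2 fold changes were above 0 in 25 of 32 members and in 73.2% of all genes, with medians of 0.19 and 0.16. After rescaling to nuclear protein-coding genes the median of all genes was -0.08, that of the members was -0.045, and 14 of 38 members were above 0, against 43.4% of all genes. After quantile normalization 11 of 32 were, against 42.8%. Tyms, Cenpf and Bub1, the 3 members of smallest p here, were higher in VCP TG under both scalings, at 0.75, 0.57 and 0.77 after rescaling and at 0.97, 0.63 and 0.61 after quantile normalization. Replication genes were above 0 in 0 of 7 under both, with medians of -0.19 and -0.16, and G1 genes in 1 of 5, with -0.46 and -0.22. Centromere and chromosome genes had medians of 0.20 and 0.37 and deoxynucleotide genes of 0.03 and 0.02. Medians of the other roles lay between -0.13 and 0.006.

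**Figure D5:**
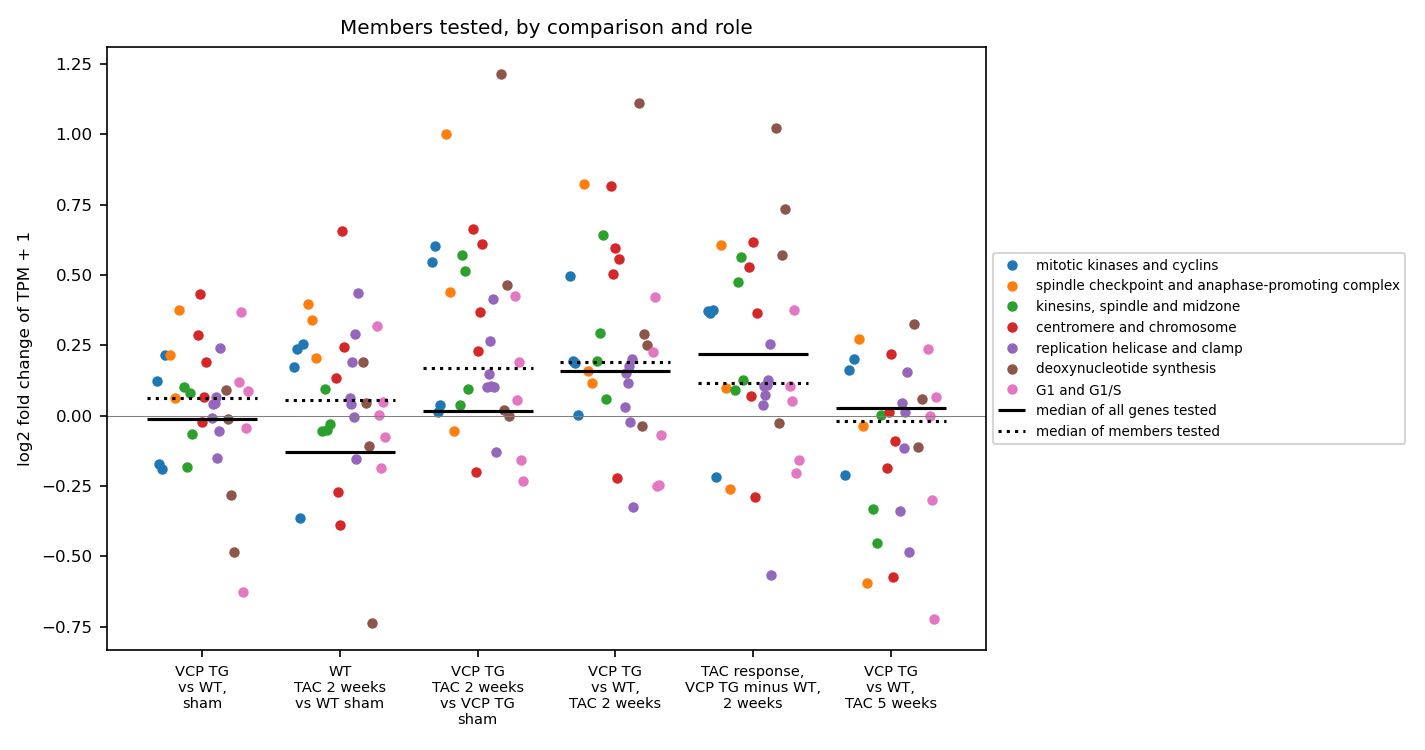
Log2 fold change of TPM + 1 for each tested member in the 6 comparisons, coloured by role; the solid line is the median of all genes tested and the dotted line that of the members. Tyms is the highest point in VCP TG TAC against VCP TG sham, at 1.21, in VCP TG against WT under TAC of 2 weeks, at 1.11, and in the difference between the TAC responses, at 1.02, and the member medians lie between -0.02 and 0.19.

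In WT hearts the only member with an unadjusted p under 0.05 after TAC was Tk1, the salvage enzyme that phosphorylates thymidine in S phase, and it was lower. Tk1 (ENSMUSG00000025574, chr11:117815526-117826092, minus strand) had 11.1, 8.68, 8.74 and 8.81 TPM in WT TAC, against 14.5, 16.4, 18.4 and 15.4 TPM in WT sham. All TAC libraries lay below all sham libraries. The means were 9.33 ± 1.17 TPM in WT TAC and 16.2 ± 1.66 TPM in WT sham (SD, n = 4 each), and the log2 fold change was -0.74 ± 0.30 (SE, limma adjusted p = 0.385), with 8.47% of all genes lower at the unadjusted threshold. In the higher direction 0 members reached it, against 2.94% of all genes.

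Tk1 passed the limma test when only the WT TAC and WT sham libraries were fitted (adjusted p = 0.0245), without libraries with Myl7 above 300 TPM (log2 fold change -0.81, adjusted p = 0.0123), without VCP TG sham replicate 4, the library with the highest mitochondrial share (adjusted p = 0.0336), and with the replicate number as a block (adjusted p = 0.0478). Many other genes passed in these settings, so the calls are not particular to Tk1. Without the Myl7 libraries 120 genes were called higher and 1082 lower, and Tk1 was the only member called among 28 tested. The standard error of Tk1 was 0.15 in the fit of WT libraries alone. Over 21 alternatives the adjusted p ran from 0.0123 to 0.735 and the log2 fold change from -0.81 to -0.52. In VCP TG hearts Tk1 had 10.6, 11.2 and 12.0 TPM after TAC, against 11.4, 12.0, 22.1 and 4.99 TPM after sham surgery. There the TAC range lay inside the sham range. Tk1 overlaps Afmid on the opposite strand, and the sources used here do not say whether strand was used in quantification.

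Mki67 and Pcna had the next smallest p-values in WT hearts. Mki67 had 3.16, 1.85, 4.58 and 1.64 TPM in WT TAC, against 2.93, 0.991, 1.19 and 0.648 TPM in WT sham, with a log2 fold change of 0.66 ± 0.32 (SE, limma adjusted p = 0.441). Pcna had 20.97, 17.1, 21.6 and 17.8 TPM in WT TAC, against 14.3, 19.2, 11.7 and 11.8 TPM in WT sham, with a log2 fold change of 0.44 ± 0.23 (SE, limma adjusted p = 0.476). The groups overlapped in both genes through 1 sham library each.

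Members without overlap in the WT comparison were 0 in the higher direction, against 2.48% of all genes, and 2 in the lower, against 13.7%. The second of them was Birc5, with 2.46, 2.52, 3.18 and 2.13 TPM in WT TAC, against 3.27, 3.58, 3.73 and 4.04 TPM in WT sham. The 2-week WT comparison had 0 adjusted calls among all 15540 genes in limma and 1773 genes (11.4%) at an unadjusted p under 0.05. Log2 fold changes were above 0 in 20 of 32 members and in 35.6% of all genes, and the medians were 0.06 for the members and -0.13 for all genes. After rescaling 26 of 38 members and 44.5% of all genes were above 0, with a median of 0.17 beside -0.06 for all genes, and after quantile normalization 23 of 32 and 49.3%, with 0.16 beside -0.01. By role the rescaled medians were 0.30 for mitotic kinases and cyclins and 0.51 for checkpoint genes, beside 0.30 and 0.55 in the VCP TG TAC comparison. They were 0.06 for kinesins and spindle proteins and 0.25 for centromere and chromosome genes, beside 0.27 and 0.34. Replication, deoxynucleotide and G1 genes had 0.13, -0.04 and 0.02, beside -0.03, 0.22 and -0.09. Macrophage markers summed to 117 to 317 TPM in WT TAC, against 97.4 to 157 TPM in WT sham, 3 of 9 tested being higher at an unadjusted p under 0.05. The 317 TPM belonged to WT TAC replicate 1, among the libraries with Myl7 above 300 TPM, and the other WT TAC libraries had 117 to 189 TPM. Endothelial markers had a median log2 fold change of -0.48. No marker passed the adjusted test, and the part of these cells in the members' levels was not tested.

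The difference between the TAC responses of VCP TG and WT hearts had 0 adjusted calls among the members and 1 among all genes (0.00644%). Tyms had the smallest p of the members, with 1.02 ± 0.44 on the log2 scale (SE, limma adjusted p = 0.872), followed by Tk1 with 0.74 ± 0.44 and Pcna with -0.56 ± 0.34 (SE, limma adjusted p = 0.872 each). Tyms was the only member at an unadjusted p under 0.05, in the higher direction, against 4.04% of all genes (5.01% in either direction). Of the 32 members 25 were above 0, against 70.6% of all genes, with medians of 0.12 and 0.22. After rescaling 16 of 38 were above 0, against 52.2% of all genes, with medians of -0.07 and 0.03, and after quantile normalization 14 of 32, against 48.9%, with medians of -0.16 and -0.01. A different response of VCP TG and WT hearts was therefore not shown for any member.

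Between VCP TG and WT sham hearts Ccnd1 was the only member at an unadjusted p under 0.05, and it was lower in VCP TG. Ccnd1 (ENSMUSG00000070348, chr7:144929931-144939925, minus strand), a D-type cyclin that activates Cdk4, had 9.24, 11.7, 9.36 and 4.59 TPM in VCP TG sham, against 14.3, 12.2, 19.1 and 9.51 TPM in WT sham. The ranges overlapped, with 2 VCP TG libraries just under the lowest WT library and 1 far under it. The log2 fold change was -0.62 ± 0.28 (SE, limma adjusted p = 1), beside 2.10% of all genes lower at that unadjusted threshold. Members without overlap were 0 in either direction, against 0.605% of all genes higher and 0.431% lower, and all 15540 genes gave 0 adjusted calls in limma and 616 (3.96%) unadjusted ones.

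Log2 fold changes were above 0 in 19 of the 32 members, against 47.8% of all genes, and after rescaling in 19 of 38, against 45.5%. Cenpa and Tk1 followed Ccnd1 in the sham comparison. Cenpa had 16.9, 16.2, 24.4 and 7.67 TPM in VCP TG sham, against 9.60, 22.3, 7.90 and 8.29 TPM in WT sham. Tk1 had 11.4, 12.0, 22.1 and 4.99 TPM in VCP TG sham, against 14.5, 16.4, 18.4 and 15.4 TPM in WT sham. In each gene 1 VCP TG library stood at either extreme. The log2 fold changes were 0.43 ± 0.33 and -0.49 ± 0.30 (SE, limma adjusted p = 1 for both).

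The members with the highest means in the other mitotic roles had overlapping groups at 2 weeks. Cdk1, the kinase that drives mitosis, had 3.98, 3.36 and 3.05 TPM in VCP TG TAC and 3.90, 1.96, 3.90 and 2.28 TPM in WT TAC, with 3.20, 3.40, 8.27 and 1.20 TPM in VCP TG sham and 3.01, 5.69, 4.42 and 3.38 TPM in WT sham. Ube2c, the ubiquitin-conjugating enzyme of the anaphase-promoting complex, had 4.04, 2.12 and 2.90 TPM in VCP TG TAC and 2.82, 3.10, 4.20 and 1.16 TPM in WT TAC, with 3.17, 2.41, 9.98 and 0.805 TPM in VCP TG sham and 2.30, 3.17, 2.75 and 0.929 TPM in WT sham. Prc1, a microtubule bundler of the midzone, had 3.79, 2.93 and 3.61 TPM in VCP TG TAC and 2.29, 3.33, 2.71 and 2.22 TPM in WT TAC, with 1.97, 1.41, 6.44 and 0.473 TPM in VCP TG sham and 3.81, 1.33, 3.10 and 1.83 TPM in WT sham. In all 3 genes the whole spread of the 2-week table lay inside the VCP TG sham group, with replicate 3 highest and replicate 4 lowest.

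The helicase gene Mcm7, the G1 gene Cdk4 and the spindle gene Nusap1 also had overlapping groups. Mcm7, a subunit of the replicative helicase, had 4.69, 3.84 and 5.96 TPM in VCP TG TAC and 4.02, 4.96, 5.24 and 2.39 TPM in WT TAC, with 4.08, 6.43, 5.08 and 2.63 TPM in VCP TG sham and 5.03, 4.52, 5.82 and 3.28 TPM in WT sham. Cdk4 had 13.7, 9.92 and 11.5 TPM in VCP TG TAC and 12.7, 10.2, 12.2 and 14.1 TPM in WT TAC, with 18.2, 18.6, 19.1 and 5.39 TPM in VCP TG sham and 15.9, 14.3, 12.3 and 10.1 TPM in WT sham. Nusap1, a spindle-associated protein, had 2.18, 1.01 and 0.971 TPM in VCP TG TAC and 1.59, 0.987, 1.98 and 0.619 TPM in WT TAC, with 1.34, 0.794, 2.23 and 0.650 TPM in VCP TG sham and 1.495, 1.10, 1.20 and 1.33 TPM in WT sham. All 4 groups overlapped in each of the 3 genes.

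Another 9 tested members had low and overlapping levels: the kinase Aurkb of the chromosomal passenger complex, Bub1b, the kinesin Kif20a, the helicase subunits Mcm3, Mcm4 and Mcm5, Rrm1, the transcription factor E2f1 and the G1/S cyclin Ccne1. Their means over the 22 libraries lay between 0.718 TPM for Bub1b and 2.24 TPM for Rrm1. Their largest log2 fold change in any comparison was 0.44 ± 0.32 for Bub1b in VCP TG TAC against VCP TG sham (SE, limma adjusted p = 1.00), and their lowest was -0.22 ± 0.46 for Aurkb in the difference between the TAC responses (SE, limma adjusted p = 0.948). Ccnb1, the cyclin that brings Cdk1 into mitosis, had 2.47, 0.698 and 1.86 TPM in VCP TG TAC, against 0.437, 0.226, 2.80 and 0.417 TPM in VCP TG sham, with sham replicate 3 above all TAC libraries. Its log2 fold change was 0.55 ± 0.35 (SE, limma adjusted p = 0.921), and 1.25 without the 4 libraries with Myl7 above 300 TPM (adjusted p = 0.0319). That fit called 701 genes higher and 18 lower in all.

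The 7 members Ccnb2, Aurka, Plk1, Cdc20, Kif11, Kif23 and Cenpe were too low for the 2-week test. Their group means lay between 0.129 and 0.854 TPM in that table. The mean of Plk1, the polo kinase of mitotic entry, was 0.353 TPM in VCP TG TAC and 0.264 TPM in WT TAC, with 0.129 TPM in VCP TG sham and 0.138 TPM in WT sham. Kif11, the motor that pushes the spindle poles apart, averaged 0.693 TPM in VCP TG TAC and 0.452 TPM in WT TAC, with 0.309 TPM in VCP TG sham and 0.292 TPM in WT sham. At such levels the number of reads behind a value is unknown, and no difference was read from them. Ccnb2 averaged 0.486 TPM over the 22 libraries and its pseudogene Ccnb2-ps 1.05 TPM, so that the share of reads between them is uncertain. Pseudogenes of Ccnb1 and Pcna are annotated as well. In all 11 members overlap a gene on the opposite strand, among them Cenpf, Tk1, Ube2c, Prc1, Ccnd1, Cdk4, Ccna2, Mcm7 and Nusap1, and reads of such pairs cannot be told apart if strand was not used.

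At 5 weeks 28 members were tested and 0 passed the adjusted test, while 1 of 13986 genes did (0.00715%). Ccnd2 and Ube2c were lower in VCP TG TAC hearts at an unadjusted p under 0.05, against 1.64% of all genes in that direction and 4.49% in either. Ccnd2 (ENSMUSG00000000184, chr6:127125162-127152193, minus strand) had 9.43, 10.8 and 5.94 TPM in VCP TG TAC, against 16.3, 16.4, 9.86 and 17.3 TPM in WT TAC. WT replicate 3 lay inside the VCP TG range and the other WT libraries above it. By the Vcp cut WT replicates 2 and 3 and VCP TG replicate 3 lay with the other genotype, and the part of this was not tested. The means were 8.72 ± 2.5 TPM (SD, n = 3) in VCP TG TAC and 14.96 ± 3.43 TPM (SD, n = 4) in WT TAC, with a log2 fold change of -0.72 ± 0.25 (SE, limma adjusted p = 0.904).

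Ube2c (ENSMUSG00000001403, chr2:164769898-164778822, plus strand) had 2.16, 0.988 and 1.52 TPM in VCP TG TAC, against 3.84, 2.52, 2.32 and 2.66 TPM in WT TAC of 5 weeks. Prc1 (ENSMUSG00000038943, chr7:80294450-80316259, plus strand) had 2.44, 2.75 and 2.43 TPM in VCP TG TAC, against 4.09, 3.54, 3.14 and 3.12 TPM in WT TAC. Both were without overlap between the groups, and the log2 fold changes were -0.59 ± 0.22 and -0.33 ± 0.17 (SE, limma adjusted p = 0.904 for both). Mcm2, a subunit of the replicative helicase, had 0.829, 0.880 and 0.677 TPM in VCP TG TAC, against 0.962, 1.24, 1.11 and 1.86 TPM in WT TAC. These 3 members were without overlap in the lower direction, against 1.74% of all genes. In the higher direction there were 0, against 3.40%.

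Tyms at 5 weeks had 31.8, 16.6 and 25.4 TPM in VCP TG TAC, against 14.7, 25.3, 19.3 and 17.2 TPM in WT TAC, and the ranges overlapped. Bub1 had 2.08, 0.757 and 2.45 TPM in VCP TG TAC, against 1.14, 1.77, 0.886 and 1.09 TPM in WT TAC. Cenpf had 3.21, 3.11 and 3.65 TPM in VCP TG TAC, against 3.09, 2.99, 4.58 and 5.37 TPM in WT TAC. None of the 3 genes parted the groups as at 2 weeks, with log2 fold changes of 0.33 ± 0.25, 0.27 ± 0.26 and -0.19 ± 0.21 (SE, limma adjusted p = 0.904, 0.904 and 0.908). The difference between the time points was not tested.

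Mki67 at 5 weeks had 1.98, 1.37 and 0.868 TPM in VCP TG TAC, against 5.63, 1.77, 1.44 and 2.41 TPM in WT TAC, and Top2a had 6.17, 3.09 and 3.93 TPM in VCP TG TAC, against 5.65, 5.21, 3.46 and 4.29 TPM in WT TAC. WT replicate 1 was the highest WT library in both. Over the 28 members 13 log2 fold changes were above 0, against 54.3% of all genes, and the medians were -0.02 for the members and 0.03 for all genes. After rescaling to nuclear protein-coding genes 7 of 39 members were above 0, against 44.6% of all genes, the member median was -0.22 and that of all genes -0.04. After quantile normalization 9 of 28 were above 0, against 48.2%. By role the medians were -0.33 for kinesins and spindle proteins, -0.09 for centromere and chromosome genes, -0.05 for replication genes, -0.04 for checkpoint genes and -0.0024 for G1 genes, all below 0 also under both scalings. They were 0.16 for mitotic kinases and cyclins and 0.06 for deoxynucleotide genes, after rescaling -0.19 and -0.16, and after quantile normalization 0.11 and 0.07. Fibroblast markers had a median log2 fold change of -0.57 in this comparison and macrophage markers of -0.36, with 2 of 8 and 2 of 9 lower at an unadjusted p under 0.05, none past the adjusted threshold, and their part in the members' levels was not tested.

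Another 104 genes of the same pathways were read beside the members: inhibitors, transcription factors, other cyclins, origin and fork proteins, checkpoint kinases and further mitotic genes. At 2 weeks 83 of them were tested and at 5 weeks 77, with 0 adjusted calls in every comparison in limma. In VCP TG TAC against VCP TG sham hearts 10 had an unadjusted p under 0.05 in the higher direction and 0 in the lower, and in VCP TG TAC against WT TAC hearts 8 and 0. The background in the higher direction was 8.0% and 9.24% of all genes in these comparisons, and in the lower 0.772% and 0.335%. The higher and lower counts were 2 and 3 in WT TAC against WT sham, 2 and 1 in VCP TG against WT sham, 2 and 1 in the difference between responses, and 0 and 0 at 5 weeks. The higher and lower shares of all genes were 2.94% and 8.47% in WT TAC and 1.87% and 2.10% in sham. They were 4.04% and 0.972% in the difference and 2.85% and 1.64% at 5 weeks.

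Rpa3, a subunit of the RPA complex that covers single-stranded DNA, had 12.9, 15.2, 9.28 and 10.8 TPM in VCP TG sham, against 9.07, 7.997, 5.04 and 4.28 TPM in WT sham. The groups did not overlap, and the log2 fold change was 0.81 ± 0.26 (SE, limma adjusted p = 1).

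Nuf2, a subunit of the kinetochore's Ndc80 complex, had 3.83, 2.12 and 2.30 TPM in VCP TG TAC, against 0.570, 0.618, 2.25 and 0.395 TPM in VCP TG sham, with a log2 fold change of 1.00 ± 0.29 (SE, limma adjusted p = 0.111). Foxm1, the transcription factor of mitotic genes, had 1.92, 1.94 and 1.65 TPM in VCP TG TAC, against 0.132, 0.565, 1.81 and 0.237 TPM in VCP TG sham, with a log2 fold change of 0.85 ± 0.30 (SE, limma adjusted p = 0.244). In both genes VCP TG sham replicate 3 lay inside the TAC range and the other sham libraries far below it. Dbf4, which activates the kinase that fires origins, had 5.34, 1.95 and 3.03 TPM in VCP TG TAC, against 1.00, 0.859, 1.23 and 1.38 TPM in WT TAC, with a log2 fold change of 1.00 ± 0.29 (SE, limma adjusted p = 0.160). Rbl1, the pocket protein p107, had 20.1, 10.1 and 11.5 TPM in VCP TG TAC, against 5.89, 4.03, 9.72 and 5.14 TPM in WT TAC, without overlap and with a log2 fold change of 1.05 ± 0.30 (SE, limma adjusted p = 0.159). In Tyms, Bub1, Cenpf, Nuf2, Dbf4 and Rbl1 the highest VCP TG TAC library was replicate 1, which also had the highest receptor gene level.

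The CDK inhibitor Cdkn1a (p21) varied most among the inhibitors. After TAC at 2 weeks it had 6.48, 5.78 and 6.56 TPM in VCP TG and 6.41, 4.61, 2.90 and 6.79 TPM in WT hearts. After sham surgery it had 4.52, 6.48, 9.92 and 1.08 TPM in VCP TG and 3.44, 9.72, 45.8 and 51.3 TPM in WT hearts. WT sham replicates 3 and 4 stood above all other libraries of that table, and the log2 fold changes were -1.74 ± 0.70 for VCP TG against WT sham (SE, limma adjusted p = 1) and -1.63 ± 0.70 for WT TAC against WT sham (SE, limma adjusted p = 0.413). The same 2 libraries had the highest neutrophil marker sums of the table, 70.9 and 41.0 TPM, and the part of this in the Cdkn1a levels was not tested.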

How the data were processed

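RNA of left ventricle was extracted with the miRNeasy kit and made into stranded poly(A) libraries with the TruSeq kit, per the labels' protocols. The authors deposited TPM values per gene (transcripts per 1000000) in a 2-week table of 15 libraries and a 5-week table of 7 libraries. The submitters' processing notes name the build GRCm38 and the tools DESeq2, STAR 2.5.4b, kallisto 0.43.1 and Trimmomatic 0.35, with no role or order. They do not say whether quantification used strand. TPM keeps no depth, so the number of reads behind a value is unknown, and neither counting intervals nor a count test could be given. Of 30735 gene IDs 30074 were found in GENCODE M21, and columns were tied to samples through their names, with 0 columns left over.

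Values were tested as log2(TPM + 1) with limma 3.58.1 in R 4.3.3 (trend and robust moderation, Benjamini-Hochberg adjustment over all genes, threshold 0.05), each table fitted separately with its groups sharing 1 estimate of the spread. A gene entered if 3 or more libraries of its table reached 1 TPM, which 32 of the 39 members met at 2 weeks and 28 at 5 weeks. The scripts were checked on simulated data with known changes, put only into genes of higher level and with noise independent between libraries. That check does not tell how often a change in a low member would be found. No 2 libraries held identical values. The members and all lists were chosen with earlier results of these data known. Values per library were given for Mki67, Top2a, the 2 members of highest mean in each role and the 3 of smallest p in each comparison, and other members and pathway genes named beyond the smallest p were chosen after their values were seen.

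The alternatives were other pseudocounts, filters and scalings, limma without trend or robust moderation, fits of the compared groups alone, a replicate block, and leaving out each replicate, the libraries with Myl7 above 300 TPM and the library of highest mitochondrial share. A split of libraries at the widest gap in Vcp parted 1 library from the rest and was not run. Leaving out the 5 libraries whose Vcp went against the label, and the library of the highest receptor gene level, were chosen after seeing the data. The replicate numbers of the labels were checked for pairing by the correlation of deviations from the group means. In the sham comparison all 4 pairs correlated at 0.107 to 0.260, a pairing that comes from the data and not from the labels, and in 1 pair both libraries correlated best with each other.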

Additional observations from a re-analysis of the deposited data

Results flagged for a closer look

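Of 80 groups of 4 libraries examined, 6 had a highest or lowest library far from the others of its group (Dixon's test at 95%), and chance gives about 1 in 20. Cenpa had 22.3 TPM in WT sham replicate 2, against 7.90 to 9.60 TPM in the other WT sham libraries. Tyms had 29.9 TPM in VCP TG sham replicate 3, against 10.9 to 12.8 TPM in the other VCP TG sham libraries. Tk1 had 11.1 TPM in WT TAC replicate 1 of 2 weeks, against 8.68 to 8.81 TPM in the others, and that library was among those with Myl7 above 300 TPM and with Vcp against its label. Cdk4 had 5.39 TPM in VCP TG sham replicate 4, against 18.2 to 19.1 TPM in the others. Ccnd2 had 9.86 TPM in WT TAC replicate 3 of 5 weeks, against 16.3 to 17.3 TPM in the others, and that library also had Vcp against its label. VCP TG sham replicates 3 and 4 were among the libraries with Myl7 above 300 TPM. In WT TAC replicate 1 of 5 weeks 32 members reached 1 TPM, against 25 to 26 in the other WT TAC libraries of that time. No cause was tested for these values.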

How the results depend on the processing

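Rescaled fits covered 38 members at 2 weeks and 39 at 5 weeks. On the deposited scale and after quantile normalization they were 32 and 28, so that the set of members differed as well. Some member medians changed sign with the scaling. That of VCP TG against WT under TAC of 2 weeks was 0.19, and -0.045 after rescaling to nuclear protein-coding genes and -0.095 after quantile normalization. That of the sham comparison was 0.06, and -0.01 after rescaling and 0.02 after quantile normalization, and that of the difference between responses was 0.12, and -0.07 after rescaling and -0.16 after quantile normalization. At 5 weeks it was -0.02, and -0.22 after rescaling and -0.11 after quantile normalization. Over all named members and alternatives the sign changed in 33 of 357 values for sham, 16 of 357 for WT TAC, 39 of 340 for VCP TG TAC, 23 of 340 for VCP TG against WT under TAC, 16 of 459 for the difference between responses and 28 of 306 at 5 weeks, each for a member within 1 SE of 0 as reported. With a pseudocount of 0.1 the genes called were 1 for sham, 8 for WT TAC, 2 for VCP TG TAC, 1 for VCP TG against WT under TAC of 2 weeks and 0 for the difference between responses, and with 0.5 they were 79 for VCP TG TAC, 7 for VCP TG against WT under TAC and 0 for the difference. With no filter on low values they were 1846 for VCP TG TAC (with 1 member, Tyms), 634 for VCP TG against WT under TAC and 24 for the difference, and with a filter on a mean of 1 TPM 48, 6 and 0. After rescaling they were 7 for WT TAC, 227 for VCP TG TAC (189 higher and 38 lower, against 119 and 1), 23 for VCP TG against WT under TAC (19 higher and 4 lower, against 14 and 0) and 4 for the difference. After quantile normalization they were 2, 84 (69 higher and 15 lower), 9 and 2. Fits of only the groups compared called 2 genes for sham, 964 for WT TAC (with 1 member, Tk1), 53 for VCP TG TAC and 8 for VCP TG against WT under TAC, and limma without trend or robust moderation called 2 for the difference.

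Without the libraries with Myl7 above 300 TPM 28 members were tested at 2 weeks. There 1202 genes were called for WT TAC, with 1 of the 28 members among them (Tk1). For VCP TG TAC 719 were called, with 2 of the 28 among them (Tyms and Ccnb1). For VCP TG against WT under TAC 640 were called, with 1 of the 28 among them (Tyms), and for the difference 0. Without the library of the highest mitochondrial share the genes called were 1 for sham, 917 for WT TAC (1 member, Tk1), 29 for VCP TG TAC and 3 at 5 weeks. Without libraries whose Vcp went against the label they were 2, 17 for VCP TG TAC, 9 for VCP TG against WT under TAC and 0 at 5 weeks. Without the library of the highest receptor gene level they were 1 for VCP TG TAC, 1 for VCP TG against WT under TAC, 0 for the difference and 0 at 5 weeks. Where a member was called in the settings listed so far, many other genes were called too. Those calls are therefore not particular to the members, and their share was not compared with that of all genes. The causes were not tested.

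With the replicate number as a block the genes called were 2 for sham, 659 for WT TAC (1 member, Tk1), 3 for VCP TG TAC, 1 for VCP TG against WT under TAC, 0 for the difference and 0 at 5 weeks, and no other member's call changed. The sham member median with the block was 0.04. In the other comparisons same-numbered libraries shared only a number, with correlations of -0.06 to 0.09 for WT TAC, -0.23 to 0.03 for VCP TG TAC, -0.13 to 0.06 for VCP TG against WT under TAC and -0.22 to 0.16 at 5 weeks, and in 0, 0, 0 and 1 pairs both libraries correlated best with each other.

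Leaving out 1 replicate at a time gave 0 to 1 genes for sham, 0 to 1 for WT TAC, 1 (without VCP TG TAC replicate 1) to 753 (without VCP TG sham replicate 3) for VCP TG TAC, 1 to 15 for VCP TG against WT under TAC, 0 to 4 for the difference and 0 to 3 at 5 weeks. Members called were 0 in all of these except VCP TG TAC, with 0 to 1. Member medians ran from -0.12 to 0.21 for sham, -0.02 to 0.18 for WT TAC, -0.01 to 0.42 for VCP TG TAC, 0.11 to 0.28 for VCP TG against WT under TAC, 0.05 to 0.34 for the difference and -0.17 to 0.04 at 5 weeks. TPM keeps no depth, which limits what can be said of members under 1 TPM. In 150-base promoter windows the CHR letters stood in 50% of members and 8.68% of all genes, and E2F-type letters in 15.6% and 3.96%, against 25% and 6.93% in 300 bases. Of the mitotic windows 1 of 19 held E2F-type letters at 150 bases. With a minimum mean of 0.5 TPM in place of 1 TPM 35 members were counted.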
